A study of Homo sapiens with 6 samples.

Results

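Collagen prolyl and lysyl hydroxylases and the lysyl oxidases that act after them are described here in CAL27 cells, an established human line of squamous tongue cancer. The 10 genes are P4HA1, P4HA2, P4HA3, P4HB, PLOD1, PLOD2, PLOD3, LOX, LOXL1 and LOXL2, out of 31368 rows in the expression table. They were chosen by name for their function while the lactate-over-untreated fold changes of this table were already known, so their differences are given as a description and carry no test of their own. Lactate cells were kept in 10 mM lactate for 24 h (3 libraries), and untreated cells were not (3 libraries). All 6 libraries come from this 1 tumour line with no other genetic change named, and the form of lactate is not given in the sources used here. Nothing in the labels ties the replicates to separate cultures, so errors and p-values measure only the spread between libraries, which may be technical. Poly-A RNA was sequenced, and levels are FPKM, fragments scaled to gene length and library size. All 10 genes had values in all 6 libraries, and 7 reached the filter of at least 1 FPKM in at least 3 libraries (LOX, LOXL1 and P4HA3 did not).

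Collagen is modified while its chains are still unfolded in the endoplasmic reticulum. Prolyl 4-hydroxylase, built of catalytic alpha subunits (P4HA genes) and protein disulfide isomerase (P4HB), makes the hydroxyproline that keeps the triple helix stable. Lysyl hydroxylases (PLOD genes) make hydroxylysine, and outside the cell lysyl oxidases (LOX genes) oxidise lysine and hydroxylysine so that neighbouring chains become cross-linked. The hydroxylases need iron, oxygen, ascorbate and 2-oxoglutarate, and the oxidases need copper. P4HA1, PLOD2, LOX and LOXL2 are known hypoxia-responsive genes in many cell types. This list is not complete and was drawn up with the fold changes known. It does not exclude other members, such as P4HA2, which was at 1.05-fold its untreated level in lactate.

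The whole reads behind the values summed to 25523172 to 38906304 per library. All 7 squamous epithelial markers were over the filter, with a sum of 345 to 355 FPKM in lactate and 343 to 346 FPKM in untreated cells. By limma 5 of them rose and 2 fell, where 27.7% of all tested genes rose and 30.9% fell. KRT5, a basal keratin and 1 of the 2 that fell, was at 117 to 121 FPKM in lactate and 153 to 157 FPKM in untreated cells. Among the 5 that rose, KRT17 was at 132 to 139 FPKM in lactate and 106 to 110 FPKM in untreated cells. Of 8 fibroblast markers in the table, 0 reached 1 FPKM in any library. Their sum was 1.62 to 1.80 FPKM in lactate and 1.08 to 1.21 FPKM in untreated cells, and LUM made up much of that gap with a mean of 0.753 FPKM in lactate and 0.372 FPKM in untreated cells. FAP was listed at 0 in 2 lactate libraries and all 3 untreated ones, and COL3A1 at 0 in 2 libraries of each group. The part of these markers in the results below was not tested, and in bulk RNA fewer cells of a type cannot be told apart from less RNA per cell.

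The 10 mRNAs did not move together. In lactate, each enzyme class had genes above their untreated level: the alpha subunit gene P4HA1 at 1.56-fold, the lysyl hydroxylase gene PLOD2 at 1.6-fold, and the oxidase genes LOX at 1.75-fold and LOXL2 at 1.35-fold. P4HA3, a further alpha subunit gene, was at 1.42-fold on 6 to 13 reads per library. P4HB (0.860-fold), PLOD3 (0.917-fold) and LOXL1 (0.875-fold) were lower, and P4HA2 and PLOD1 lay within 1.05-fold of untreated. The lactate and untreated values did not overlap in 6 of the 7 genes over the filter, against 65.5% of all 11792 genes tested. By limma (adjusted p under 0.05, Benjamini-Hochberg over all genes tested), 5 of these 7 were called (58.6% of all genes tested), 3 of them higher (27.7%) and 2 lower (30.9%). Over all genes that is 3265 higher and 3649 lower, or 4185 higher and 2551 lower with libraries scaled to their read totals. The median log2 fold change of the 7 was 0.06, and that of all genes tested was -0.016. Because the genes were picked with this contrast known, these counts describe the genes and nothing is read from them.

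**Figure D1:**
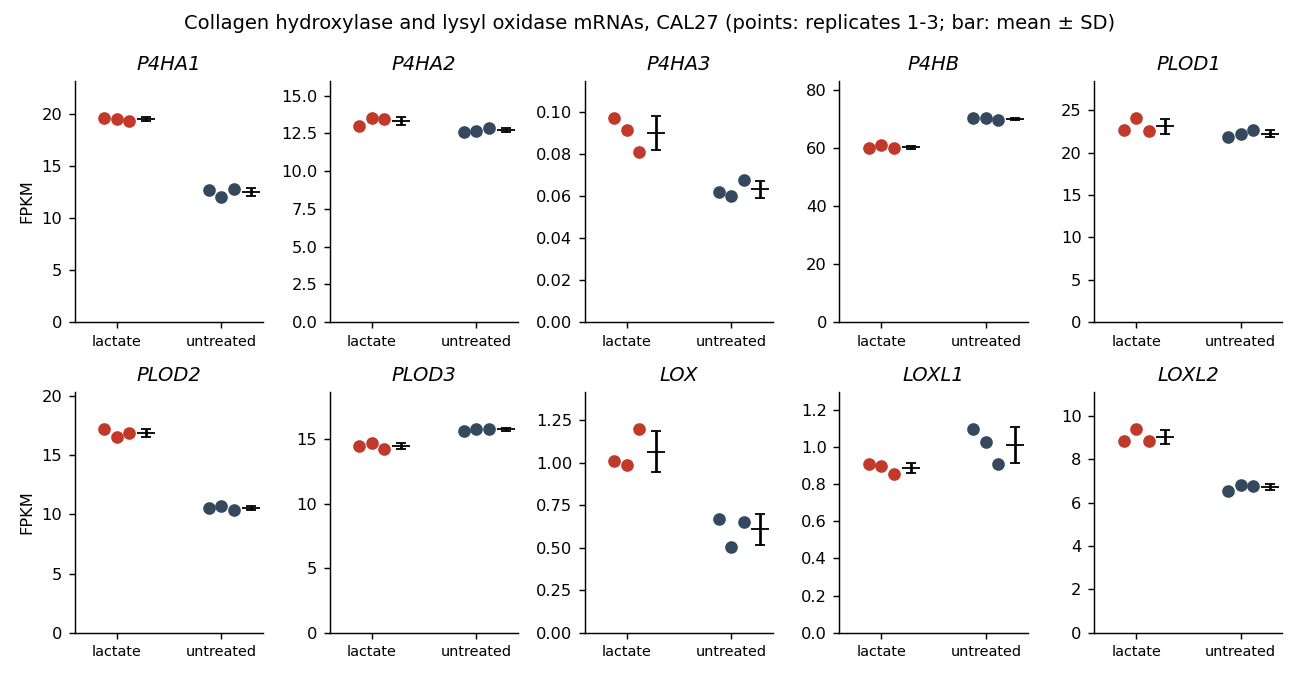
FPKM of each of the 10 genes (vertical axes, each from 0 with its own scale) in the 3 lactate and 3 untreated libraries. Points are replicates and the bar is the mean ± SD. P4HA1, PLOD2, LOX and LOXL2 are 1.35-fold to 1.75-fold their untreated mean in lactate, while P4HB is at 0.860-fold and PLOD3 at 0.917-fold.

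The sequence before a RefSeq start site is shown for the 3 genes that were highest in lactate relative to untreated cells in their class. It is also shown for both genes called lower. These genes were picked by the fold changes given above, so their matches are no test of those changes. The higher ones are among the known hypoxia-responsive genes. Hypoxia-inducible factors bind the core ACGTG or GCGTG. Each run is the 250 bases before the most upstream start that RefSeq gives, 5′ to 3′ on the gene's strand in GRCh38.p14, with matches to either core on either strand in capitals (CACGT and CACGC are the same cores on the other strand). The runs lie at chr3:146161185-146161434 (PLOD2), chr10:73096867-73097116 (P4HA1), chr5:122078260-122078509 (LOX), chr17:81860536-81860785 (P4HB) and chr7:101217582-101217831 (PLOD3), all on the minus strand.
PLOD2: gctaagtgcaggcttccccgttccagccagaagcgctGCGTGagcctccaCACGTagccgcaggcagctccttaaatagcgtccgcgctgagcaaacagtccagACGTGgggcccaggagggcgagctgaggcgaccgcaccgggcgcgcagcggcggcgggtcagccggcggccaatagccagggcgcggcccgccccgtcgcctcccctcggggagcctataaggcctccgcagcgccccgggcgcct
P4HA1: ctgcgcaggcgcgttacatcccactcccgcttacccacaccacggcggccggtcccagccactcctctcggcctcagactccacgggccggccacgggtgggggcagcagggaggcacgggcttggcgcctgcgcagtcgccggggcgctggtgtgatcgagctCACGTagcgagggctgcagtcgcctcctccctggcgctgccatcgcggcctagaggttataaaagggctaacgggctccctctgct
LOX: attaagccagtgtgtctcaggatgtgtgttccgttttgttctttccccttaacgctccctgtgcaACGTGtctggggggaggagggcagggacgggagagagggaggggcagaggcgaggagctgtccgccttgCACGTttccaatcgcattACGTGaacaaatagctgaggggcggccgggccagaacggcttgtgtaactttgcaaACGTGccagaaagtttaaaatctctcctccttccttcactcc
P4HB: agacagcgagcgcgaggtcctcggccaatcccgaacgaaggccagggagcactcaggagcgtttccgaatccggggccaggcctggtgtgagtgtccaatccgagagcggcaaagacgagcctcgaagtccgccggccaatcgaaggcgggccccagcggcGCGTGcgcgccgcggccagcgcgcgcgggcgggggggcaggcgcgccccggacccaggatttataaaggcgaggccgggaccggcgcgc
PLOD3: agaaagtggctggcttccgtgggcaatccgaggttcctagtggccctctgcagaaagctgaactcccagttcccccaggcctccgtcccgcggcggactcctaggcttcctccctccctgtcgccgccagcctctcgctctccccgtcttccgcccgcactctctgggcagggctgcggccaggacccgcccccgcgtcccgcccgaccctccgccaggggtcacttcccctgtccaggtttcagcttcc

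In these windows the narrower core ACGTG was found 2 times before PLOD2, 1 time before P4HA1 and 4 times before LOX. P4HB had 0 ACGTG and 1 GCGTG, and PLOD3 had neither. P4HA2 and LOXL1, whose windows are not shown, had neither as well. The windows of P4HA2, PLOD1, PLOD2, PLOD3 and LOXL1 lie inside the gene spans of GENCODE, so the RefSeq starts differ from the ends of those spans. On the minus strand the P4HA2 window ends at 132227341 and its span at 132295315. For PLOD2 these ends are 146161434 and 146163653, and for PLOD3 101217831 and 101218420. Whether the sequence before other starts of these genes holds a core was not tested. LOXL2 and P4HA3 had no window. Of 8 members with a window in the table, 3 held ACGTG, and so did 18.6% of 27326 windows, 1 per gene. Either core was found in 5 of the 8, P4HB and PLOD1 (2 GCGTG) among them, and in 43.1% of the windows. At least 2 matches to ACGTG were found in 7.6% of windows and at least 4 in 0.7%, where CACGTG counts as a match on each strand. Among windows within 2.5 percentage points of the same GC content, 22.5% held ACGTG beside PLOD2, 23.4% beside P4HA1 and 20.8% beside LOX. A match is a description of the letters and not a site of binding.

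In deposited FPKM, P4HA1 was the highest alpha subunit gene of prolyl 4-hydroxylase in lactate. In untreated cells it was close to P4HA2 (means 12.5 and 12.7 FPKM). P4HA1 (ENSG00000122884, chromosome 10, 73007217 to 73096974 in GRCh38) had 19.6, 19.6 and 19.3 FPKM in lactate libraries 1 to 3, against 12.7, 12.1 and 12.8 FPKM in untreated libraries 1 to 3. All 3 lactate libraries lay above all 3 untreated ones, with a gap many times the spread within either group. The means were 19.5 ± 0.178 in lactate and 12.5 ± 0.385 FPKM in untreated cells (SD, n = 3 each). The log2 fold change was 0.60 (limma SE 0.029) on the log2(FPKM + 1) scale. That scale is used throughout except for voom and where another is named, and it understates changes of low genes. Ranked from the highest log2 fold change P4HA1 was number 39 of 11792 tested genes. The values rested on 939 to 2401 reads per library.

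P4HA2, the other widely expressed alpha subunit (ENSG00000072682, chromosome 5, 132191838 to 132295315), had 13.0, 13.5 and 13.4 FPKM in lactate, against 12.6, 12.7 and 12.8 FPKM in untreated cells. The lactate values were all above the untreated ones, but by a margin smaller than the spread among the lactate libraries (log2 fold change 0.063, SE 0.027), and the gene was not called. P4HA3, the third alpha subunit (ENSG00000149380, chromosome 11, 74235801 to 74311657), was close to absent at 0.0971, 0.0914 and 0.0810 FPKM in lactate, against 0.0620, 0.0598 and 0.0677 FPKM in untreated cells. These are 12, 12 and 13 reads in lactate and 7, 6 and 9 reads in untreated cells, so that counting alone gives a relative error of 40.8% at the lowest library.

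P4HB (ENSG00000185624, chromosome 17, 81843159 to 81860694) supplies the beta subunit and also forms disulfide bonds in many secreted proteins. It had 60.1, 61.0 and 60.0 FPKM in lactate, against 70.2, 70.5 and 69.9 FPKM in untreated cells, and the groups did not overlap. The log2 fold change was -0.21 (SE 0.018), and -0.065 after quantile normalization. The means were 60.4 ± 0.569 FPKM in lactate and 70.2 ± 0.308 FPKM in untreated cells (SD, n = 3 each).

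Within the alpha subunits the balance moved toward P4HA1. Its share of their summed FPKM was 60.03%, 58.9% and 58.8% in lactate, against 50.02%, 48.7% and 49.7% in untreated cells. The sum itself averaged 32.9 ± 0.237 FPKM in lactate and 25.3 ± 0.455 FPKM in untreated cells. The ratio of P4HB to that sum was 1.84, 1.84 and 1.83 in lactate and 2.77, 2.84 and 2.72 in untreated cells, since the beta subunit was lower while the alpha subunits together were higher. The size of this ratio depends on gene lengths: the length implied by the deposited values is 11132 nt for P4HB, against 5303 nt of merged exons in GENCODE 29. The level of the P4HA1 share depends on them as well. The implied length is 10128 nt for P4HA2, against 8502 nt of merged exons, and 3093 nt by either for P4HA1. These lengths apply to both groups alike.

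Among lysyl hydroxylases PLOD2 stood apart. PLOD2 (ENSG00000152952, chromosome 3, 146069440 to 146163653) hydroxylates lysines in the short telopeptides at collagen ends, where hydroxylysine leads to more stable cross-links. Its values were 17.2, 16.5 and 16.8 FPKM in lactate, against 10.5, 10.7 and 10.3 FPKM in untreated cells. The lowest lactate library was well over the highest untreated one. The means were 16.9 ± 0.361 FPKM in lactate and 10.5 ± 0.181 FPKM in untreated cells (SD, n = 3 each; log2 fold change 0.63, SE 0.028), from 2062 to 5187 reads per library. In the same ranking it was number 32.

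PLOD1 (ENSG00000083444, chromosome 1, 11934205 to 11975538) acts on lysines within the triple helix. It had 22.7, 24.1 and 22.5 FPKM in lactate and 21.9, 22.2 and 22.7 FPKM in untreated cells. Here the groups overlapped, with lactate replicates 1 and 3 just below the highest untreated library (log2 fold change 0.051, SE 0.032). PLOD3 (ENSG00000106397, chromosome 7, 101205977 to 101218420), which also adds sugars to hydroxylysine, had 14.5, 14.7 and 14.2 FPKM in lactate, against 15.6, 15.8 and 15.8 FPKM in untreated cells. The groups did not overlap, but the difference was small (log2 fold change -0.12, SE 0.024). PLOD3 was no longer called with libraries scaled to their read totals (-0.049) or with trends on GC content and length removed (-0.053).

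PLOD1 was the most abundant of the 3 in every library and PLOD2 changed places with PLOD3. PLOD2 made up 31.7%, 29.9% and 31.4% of the summed PLOD level in lactate, against 21.9%, 21.9% and 21.1% in untreated cells. PLOD3 made up 26.6%, 26.5% and 26.6% in lactate, against 32.6%, 32.5% and 32.3% in untreated cells. Thus PLOD2 was above PLOD3 in all 3 lactate libraries and below it in all 3 untreated ones. The PLOD sum averaged 54.4 ± 0.856 FPKM in lactate and 48.5 ± 0.457 FPKM in untreated cells.

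**Figure D2:**
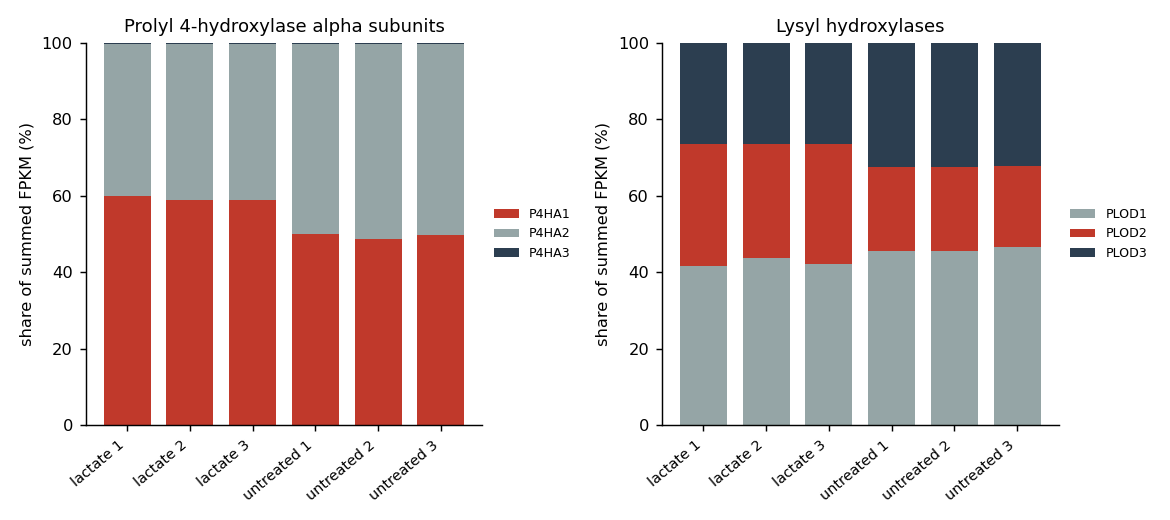
Share of summed FPKM (%, vertical axis) taken by each alpha subunit gene (left) and each lysyl hydroxylase gene (right) in the 3 lactate and 3 untreated libraries. P4HA1 takes 58.8% to 60.03% in lactate and 48.7% to 50.02% in untreated cells, and PLOD2 takes 29.9% to 31.7% in lactate and 21.1% to 21.9% in untreated cells. P4HA3 is too low to be seen.

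The lysyl oxidases were the least expressed class, with LOXL2 the main one. LOXL2 (ENSG00000134013, chromosome 8, 23297189 to 23425328), an oxidase known to act on basement membrane collagen, had 8.86, 9.42 and 8.84 FPKM in lactate, against 6.55, 6.83 and 6.77 FPKM in untreated cells. The means were 9.04 ± 0.332 FPKM in lactate and 6.72 ± 0.148 FPKM in untreated cells (SD, n = 3 each). Every lactate library was above every untreated one (log2 fold change 0.38, SE 0.034). LOXL2 took 81.1% to 83.4% of the 3 oxidases' sum in lactate and 78.75% to 81.7% in untreated cells, and these ranges overlap.

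LOX (ENSG00000113083, chromosome 5, 122063195 to 122078360), the founding member of the family, had 1.01, 0.983 and 1.20 FPKM in lactate, against 0.670, 0.504 and 0.649 FPKM in untreated cells. The groups did not overlap, and the ratio of means was 1.75, while the log2 fold change on the FPKM + 1 scale was 0.36 (SE 0.068, from the fit with no filter) because the level is near the added 1. In that fit, run over all genes, LOX was called higher. The reads were 175, 181 and 270 in lactate and 106, 71 and 121 in untreated cells. LOXL1 (ENSG00000129038, chromosome 15, 73925989 to 73952137), known for its part in elastic fibres, had 0.906, 0.895 and 0.855 FPKM in lactate, against 1.10, 1.03 and 0.908 FPKM in untreated cells. The groups were separated only by the third decimal, at 94 to 125 reads per library, and the log2 fold change was -0.093 (SE 0.051, same fit).

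Fold change in these libraries followed GC content across genes, and the members differ widely in it. PLOD2 (34.4% GC), LOX (39.6%) and P4HA1 (40.8%) have the lowest GC content of the 10 and the 3 highest ratios of lactate to untreated means. P4HA3 (52.3%) and LOXL2 (58.2%) follow in ratio. Among tested protein-coding genes within 2.5 percentage points of the same GC content the median log2 fold change was 0.15 around PLOD2 (499 genes), 0.16 around LOX (2028 genes) and 0.15 around P4HA1 (2171 genes). Around LOXL2 it was -0.11 (1485 genes), around P4HB -0.11 and around PLOD3 -0.10. With trends on GC and length removed from each library, log2 fold changes were 0.47 for PLOD2, 0.52 for P4HA1 and 0.45 for LOXL2. Those of P4HB and PLOD3 were then -0.18 and -0.053, that of PLOD1 was 0.13 and that of P4HA2 0.067. LOX, under the filter, was not in that fit. Subtracting the trend of the genes over the filter, read at its GC content and length, gave 0.21 for LOX. That value cannot be set beside the others, since the level of LOX is near the added 1 FPKM. What part GC content has in the deposited differences was not tested beyond these values.

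**Figure D3:**
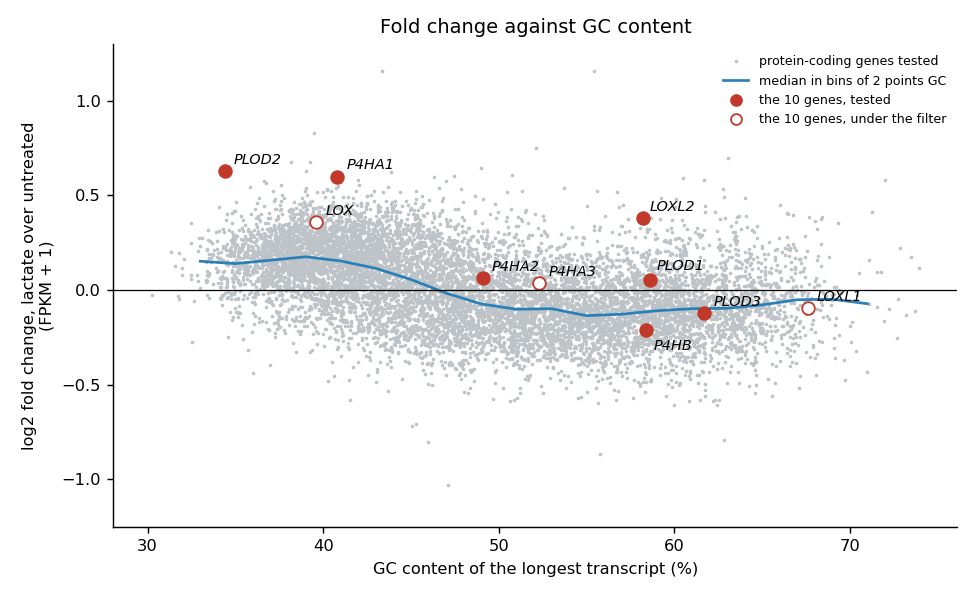
Log2 fold change, lactate over untreated, against GC content (%) for tested protein-coding genes (grey points), with the median in bins of 2 points (blue line) and the 10 genes (red; open where under the filter). PLOD2 at 0.63, P4HA1 at 0.60 and LOXL2 at 0.38 lie above the line at their GC content, while PLOD3 and LOXL1 lie close to it.

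Other genes share exon bases with some members in GENCODE 29, and whether reads were counted by strand is not given in the sources used here. ZNHIT1 overlaps PLOD3 by 429 nt on the opposite strand and was at 20.1 to 24.6 FPKM. PPME1, at 13.1 to 14.3 FPKM, overlaps P4HA3 by 166 nt on the opposite strand, so the few P4HA3 reads are uncertain. LOXL1-AS1 overlaps LOXL1 by 335 nt and was at 0.865 to 1.14 FPKM, as high as LOXL1 itself. LOX shares 138 nt with SRFBP1 on the opposite strand (6.82 to 8.79 FPKM). On the same strand LOXL2 shares 120 nt with ENTPD4 (3.40 to 4.04 FPKM). P4HB shares 529 nt and P4HA1 47 nt with opposite-strand genes that were not analysed here, P4HA2 shares 548 nt with P4HA2-AS1 (at most 0.0385 FPKM), and the search listed no overlap for PLOD1 and PLOD2.

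Partners of these enzymes in making collagen included genes called higher and genes called lower. In 6 related lists, 67 of 105 genes in the table were tested, with a median log2 fold change of 0.06, and 26 rose and 19 fell. The counts below stand beside 27.7% of all tested genes called higher and 30.9% called lower, and nothing particular to a list is read from them. In the list of collagen folding and modification 3 of 9 tested genes rose and 4 fell (median 0.023). The largest changes were falls: SERPINH1, the collagen chaperone HSP47, averaged 20.4 ± 0.164 FPKM in lactate and 29.9 ± 0.264 in untreated cells (log2 fold change -0.53, limma adjusted p = 9.81e-06). PPIB, the prolyl isomerase cyclophilin B, averaged 59.0 ± 1.51 FPKM in lactate and 81.4 ± 0.137 in untreated cells (-0.46, limma adjusted p = 1.27e-05). CRTAP, a partner of PPIB in prolyl 3-hydroxylation, changed by -0.13 and the galactosyltransferase gene COLGALT1 by -0.08. After quantile normalization COLGALT1 turned to 0.063 and passed as higher (limma adjusted p = 0.0258). With read totals CRTAP was at -0.062 (limma adjusted p = 0.116) and COLGALT1 at -0.008, neither passed, and 2 genes of the list fell. The rises were small: FKBP14 0.18, TMEM38B 0.10 and P3H2 0.09, and with GC and length trends removed FKBP14 was at 0.032 and TMEM38B at -0.02. P3H2 no longer passed without lactate replicate 2 or 3 or untreated replicate 1 or 2 (limma adjusted p = 0.0585 to 0.101), and TMEM38B without lactate replicate 3 (limma adjusted p = 0.0529).

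Collagen chains, the substrates, rose in 7 and fell in 3 of 17 tested genes (median 0.064), and 7 did not pass. COL17A1, a transmembrane collagen of hemidesmosomes, was named after its values were seen, as the most abundant, at 82.3 FPKM in lactate and 83.7 FPKM in untreated cells, and did not pass (limma adjusted p = 0.267). The type VI chain COL6A2 averaged 10.5 ± 0.399 FPKM in lactate and 7.70 ± 0.424 in untreated cells (0.41, limma adjusted p = 0.000227). COL6A1 (0.29), COL12A1 (0.38) and COL5A1 (0.22) rose as well. COL5A1 was at 0.34 with voom, whose scale has no added 1 FPKM, and its log2 ratio of means with no pseudocount was 0.32. COL7A1, the anchoring fibril collagen, fell (-0.19, or -0.12 with read totals), as did COL27A1 (-0.27) and COL9A3 (-0.24, which did not pass with no filter, limma adjusted p = 0.0505). The fibrillar chains COL1A1, COL1A2 and COL3A1 were all under 1 FPKM. For export and processing 1 of 5 tested genes rose and 0 fell (median 0.10; 0 of the 5 had a log2 fold change under 0): MIA3, which loads procollagen into transport carriers, at 0.31, and at 0.14 without the GC and length trend, where it did not pass (limma adjusted p = 0.0558). The count that rose was 2 with that trend removed, with quantile normalization, with no variance trend, with the replicate block, and without lactate replicate 1 or untreated replicate 3. It was 3 with read totals or voom.

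Disulfide isomerases and oxidases other than P4HB rose in 4 and fell in 5 of 12 tested genes (median -0.027). PDIA4 averaged 179 ± 1.31 FPKM in lactate and 219 ± 3.03 in untreated cells (-0.29, limma adjusted p = 1.99e-05). ERP29 (-0.29) and PDIA6 (-0.21) fell as well. ERO1A, the oxidase that recharges disulfide isomerases, averaged 36.0 ± 1.35 FPKM in lactate and 27.1 ± 0.956 in untreated cells (0.39, limma adjusted p = 0.000106), and ERP44 (0.25) and ERO1B (0.26) rose too. With the GC and length trend removed ERO1A was at 0.22, ERP44 at 0.11, PDIA4 at -0.17 and ERP29 at -0.19. ERO1B (0.1, limma adjusted p = 0.1) did not pass there, and 3 genes of the list rose and 3 fell. After quantile normalization PDIA4 was at -0.12, ERP29 at -0.17 and PDIA6 at -0.07.

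Other 2-oxoglutarate dioxygenases rose in 3 and fell in 2 of 8 tested genes (median 0.037). ASPH, an aspartyl hydroxylase of the endoplasmic reticulum, averaged 16.4 ± 0.134 FPKM in lactate and 11.04 ± 0.239 in untreated cells (0.53, limma adjusted p = 1.27e-05), and was at 0.33 with the GC and length trend removed. EGLN3, a prolyl hydroxylase that marks HIF for degradation, averaged 4.93 ± 0.132 FPKM in lactate and 3.79 ± 0.136 in untreated cells (0.31, limma adjusted p = 0.000331). PHYH rose by 0.21 (0.34 with voom, and 0.32 as a log2 ratio of means with no pseudocount) and HIF1AN fell by 0.15. With read totals HIF1AN was at -0.088 (limma adjusted p = 0.0521) and JMJD6 at -0.0033, and neither of these 2 falls passed. PHYH no longer passed without lactate replicate 3 or untreated replicate 1 or 2 (limma adjusted p = 0.0514 to 0.0695), and JMJD6, at the threshold (limma adjusted p = 0.0448), no longer passed with any 1 library left out.

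HIF subunits and hypoxia targets rose in 8 and fell in 5 of 16 tested genes (median 0.13). Beside P4HA1 and PLOD2, NDRG1 averaged 9.06 ± 0.334 FPKM in lactate and 4.97 ± 0.0501 in untreated cells (0.75, limma adjusted p = 1.2e-05). EPAS1 (0.37), HIF1A (0.29, or 0.15 with the GC and length trend removed) and BNIP3 (0.24) rose. VEGFA averaged 17.3 ± 0.443 FPKM in lactate and 22.9 ± 0.413 in untreated cells (-0.39, limma adjusted p = 4e-05), and DDIT4 (-0.27), SLC2A1 (-0.17) and PGK1 (-0.12) fell. After quantile normalization PGK1 was at 0.047 and did not pass, DDIT4 was at -0.10 and SLC2A1 at -0.11. With the trend removed DDIT4 was at -0.12, SLC2A1 at -0.11 and PGK1 at -0.21, and with read totals SLC2A1 was at -0.11 and PGK1 at -0.047.

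**Figure D4:**
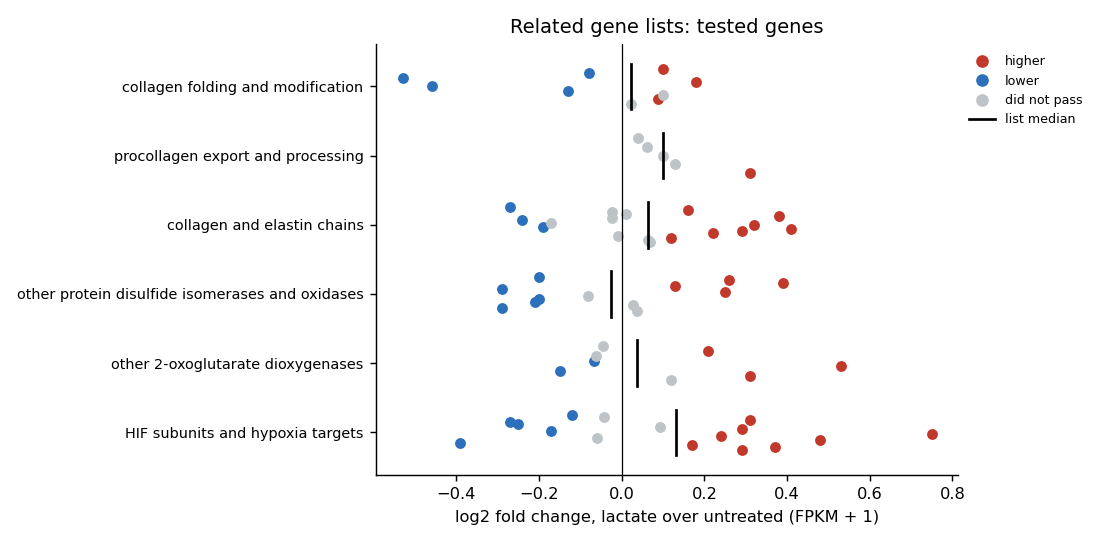
Log2 fold change, lactate over untreated, of the tested genes in 6 related lists; red points rose, blue points fell and grey points did not pass limma at an adjusted p under 0.05, and the black bar is the list median. SERPINH1 (-0.53) and PPIB (-0.46) are the lowest points of the first list, and NDRG1 (0.75) the highest of the last.

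Over the 6 libraries, P4HA1 and LOXL2 followed PLOD2 at a Pearson r of 0.992 and 0.979, while P4HB and PLOD3 ran opposite at -0.996 and -0.979. Of 11052 named genes with a mean of at least 1 FPKM, those most like PLOD2 were HSPH1 (r = 0.9997), FAM160B1, HES1, KIF1B and GSN (0.9993). Those most opposite were PNP (-0.9999), MRPL18, OASL, ODC1 and ALYREF (-0.9995). With 2 groups of 3 libraries such values mostly repeat the difference between the groups, which these 6 points share, and are a description only. HSPH1, a heat shock cochaperone gene, was at 35.1, 34.1 and 34.6 FPKM in lactate and 27.4, 27.4 and 27.2 FPKM in untreated cells.

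Under the other ways of processing that were run (17, or 9 for LOX, LOXL1 and P4HA3) every member kept its sign. P4HA1 ranged from 0.52 to 0.67, PLOD2 from 0.47 to 0.71 and LOXL2 from 0.35 to 0.45 in log2 fold change over 17 alternatives, and each was called in all 17. P4HB ranged from -0.24 to -0.065 and was called in all 17, and PLOD3 from -0.14 to -0.049 and was called in 14. P4HA2 was called in 3 and PLOD1 in 5 of the 17, always as higher. Leaving out 1 library moved PLOD2 only between 0.62 and 0.65, P4HA1 between 0.58 and 0.62 and LOX between 0.31 and 0.39.

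**Figure D5:**
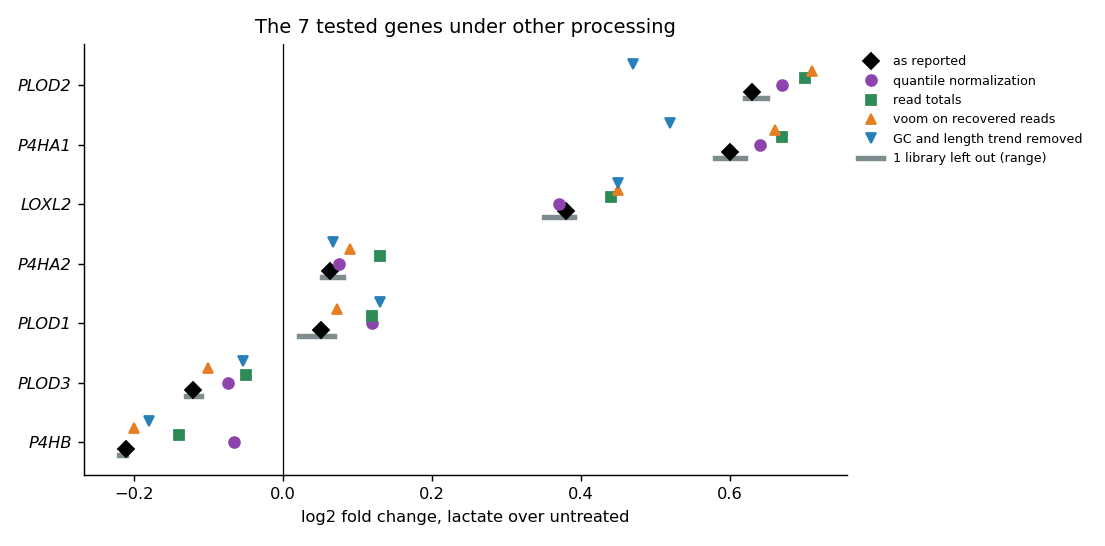
Log2 fold change, lactate over untreated, of the 7 genes over the filter as reported (diamonds), under 4 other settings, and over the 6 fits that leave out 1 library (grey bars). PLOD2, P4HA1 and LOXL2 stay at 0.35 or above under every setting drawn; voom values are on a scale with no added 1 FPKM.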

How the data were processed

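The submitters' processing notes name build hg38 and featureCounts 1.5.0-p3, StringTie 1.3.3b, HISAT2 2.0.5 and fastp, without roles. Annotation release and strand setting: not given in the sources used here. In the authors' table, values are FPKM as deposited for 31368 genes, per the file headers, in 1 column per library. Whole reads were recovered from them with 1 length per gene (within 0.003 reads for 31351 genes, 99.9%), which gives the reads quoted. They came to 96.5% to 97.6% of the FPKM denominators in lactate and 101.4% to 102.6% in untreated libraries. The main test was limma 3.58.1 (R 4.3.3) on log2(FPKM + 1), with trended, robust variance and group as the only term, over genes that 3 or more libraries held at 1 FPKM or higher. It was also run on simulated data with upward changes only and no GC trend, and nothing about the calls here is read from that run. Members, lists and tests were chosen with earlier results of these data known. Named were all members, up to 4 genes per direction with the smallest p in each list, and the 5 genes most and least like PLOD2; some appear only in counts. GENCODE 29 gave coordinates, exon lengths and GC content, and RefSeq (GRCh38.p14) the promoters, for 8 members. Alternatives were quantile normalization, median centring, read totals, no variance trend, no filter, a filter at 5 FPKM, a pseudocount of 0.1, a replicate block, voom on recovered reads with TMM (trimmed mean of M values) factors, removal of GC and length trends (splines, 4 degrees of freedom) and each library left out. Chosen after seeing the data was the ratio of mean FPKM with no pseudocount. Python 3.11.15 did the rest.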

Additional observations from a re-analysis of the deposited data

How the results depend on the processing

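Of all genes tested, 3265 were higher and 3649 lower in lactate. With a filter at 5 FPKM, which left 6448 genes, 1786 were higher and 2955 lower. The median log2 fold change was then -0.071 in place of -0.016, and in the related lists 15 genes were higher. Members called higher were 3, and 5 with quantile normalization, read totals or voom on recovered reads (P4HA2 and PLOD1 were added), and 4 with no filter (LOX was added) or with the GC and length trend removed (PLOD1 was added). Members called lower were 2, and 1 with read totals or with the GC and length trend removed, with or without the replicate block (PLOD3 was lost). Scaling to read totals gave 4185 genes higher and 2551 lower with a median of all genes of 0.041 in place of -0.016. Signs turned for COLGALT1 (0.063 with quantile normalization, 0.011 without the GC and length trend), PGK1 (0.047 with quantile normalization), TMEM38B (-0.02) and TMX1 (-0.0035, both without that trend), each the same with the replicate block where the trend was removed. Among these turned values only that of COLGALT1 with quantile normalization passed (limma adjusted p = 0.0258). Same-numbered libraries deviated from their group means with r of 0.053, 0.067 and -0.004. Lactate replicates 1 and 2 correlated best with their own number, and lactate replicate 3 did not. Values this small do not show a pairing by number and cannot exclude one. With the replicate block 7039 genes were called in place of 6914, and with voom 7377. Leaving out 1 library changed no direction of a member. For LOX, LOXL1 and P4HA3, under the filter, quantile normalization, median centring, voom and the block were not run. The GC and length trend removed from them was that of the genes over the filter.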
